A study of Homo sapiens with 16 samples.

Results

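PNRC1 and PNRC2, 2 proline-rich adaptor proteins that bind both nuclear receptors and the mRNA decapping machinery, were followed here together with the decapping enzyme DCP2, its partners DCP1A, DCP1B, EDC3 and EDC4, and the exonuclease XRN1. These 8 genes were taken by symbol from the 23396 genes that the authors' deposited tables list, and all 8 stood in every table. PNRC1 was chosen by the size of its measured changes, so its values are given as a description, without a p-value, and it counts among the 8 only as a member. The other 7 were chosen by their place in the decapping pathway. Earlier results of these data were known when they were chosen, so their p-values are not free of selection.

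The cells were U2OS, a human osteosarcoma line with wild-type p53. They were transfected with siRNA that was either a control (siControl) or directed at RFX7, a transcription factor (siRFX7), and were then kept for 24 h with 10 µM Nutlin-3a, which keeps MDM2 from binding p53 and thereby stabilises it, or with its solvent DMSO. The 4 groups were thus siControl with DMSO, siControl with Nutlin-3a, siRFX7 with DMSO and siRFX7 with Nutlin-3a, each with 4 poly(A) RNA-seq libraries, 16 in all. The design addressed which transcripts depend on RFX7 with and without active p53. A single cell line and a transient knockdown limit the groups as a model. The deposited tables hold 2-group comparisons and no single library, and every error is a standard error (SE) that the authors computed or a 95% interval made from it. Nothing in the labels says that the 4 libraries of a group came from separate cultures, so the p-values measure only the spread between these libraries.

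Removal of the 5′ cap commits most mRNAs to degradation. DCP2 is the catalytic subunit that cuts the cap, DCP1A and DCP1B are paralogous activating subunits, EDC3 and EDC4 bring the subunits together and enhance cleavage, and XRN1 degrades the uncapped RNA from its 5′ end. PNRC2 links DCP1A to the nonsense-mediated decay factor UPF1, and PNRC1 is a related adaptor that has been described as a nucleolar recruiter of the decapping enzyme and as a tumour suppressor. RFX7 has been described as a transcription factor that acts downstream of p53, and RFX factors bind X-box elements in promoters.

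RFX7, CDKN1A and MDM2 served as checks of the labels. Their signs also set the direction of the tables, so the signs are no independent check and only the sizes of the changes are. In the authors' deposited tables RFX7 was at 18.6% of its siControl level under DMSO and at 19.4% under Nutlin-3a. CDKN1A, the p53 target that encodes the cell cycle inhibitor p21, had log2 fold changes with Nutlin-3a of 3.24 in siControl and 2.98 in siRFX7, and MDM2 had 2.89 and 2.76, per the authors' deposited tables. CDKN1A was itself higher with siRFX7, by 0.60 under DMSO and 0.33 under Nutlin-3a (log2, the authors' deposited tables). Base means per the authors' deposited tables summed to between 27946376 and 35311111 normalised counts per library. Osteoblast-lineage markers were uneven per the authors' deposited table for Nutlin-3a in siControl: base means were 39039 for COL1A1 and 31574 for SPARC, 432 for RUNX2 and 370.5 for ALPL, and 13.2 for COL1A2, while SP7 and IBSP were not in that table. Of the epithelial markers, KRT8 had 24067 and KRT18 12140 normalised counts per the authors' deposited table, EPCAM had 191 and CDH1 121, and KRT19 was not in it. Leukocyte markers reached at most 5.21 and endothelial markers 17.8.

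Promoter windows of all 8 genes were found among 35116 windows from RefSeq on GRCh38.p14, each running from 250 bases before to 50 bases after a gene's start. Each window was searched on both strands for GTTGCC, an arm of the X-box that RFX factors bind, and for the palindromic form, GTTNCC followed within 3 bases by its reverse complement. GTTGCC stood in 12.2% of all windows and in 1 of the 8, that of DCP1B. The palindromic form stood in 0.740% of all windows and again in 1 of the 8, the same DCP1B window, where it overlaps GTTGCC on both strands. The full p53 response element, in the form searched, stood in only 10 of the 35116 windows (0.0285%) and in 0 of the 8. An arm of that element, searched alone, stood in 6.63% of all windows and again in 0 of the 8. At such low shares a count of 0 among 8 windows says little. Whether p53 binds these promoters was not tested. GTTGC, a shorter word that was added after the data had been examined, stood in 33.6% of all windows and in 5 of the 8, those of PNRC1, PNRC2, DCP1B, DCP2 and XRN1. Starts are those of RefSeq and can differ from the GENCODE positions given below. The PNRC2 match, at chr1:23959721-23959725, lies inside the GENCODE span of that gene. A match describes letters in the window and not a bound site. The windows of PNRC1 (chr6:89080501-89080800, plus strand) and DCP1B (chr12:2004408-2004707, minus strand) are printed 5′ to 3′ because these genes had the largest changes of the 8. Capitals mark GTTGC in PNRC1, where it starts at the first transcribed base, and the palindromic X-box match in DCP1B, which lies at -193 to -179 relative to the start (chr12:2004636-2004650).
PNRC1: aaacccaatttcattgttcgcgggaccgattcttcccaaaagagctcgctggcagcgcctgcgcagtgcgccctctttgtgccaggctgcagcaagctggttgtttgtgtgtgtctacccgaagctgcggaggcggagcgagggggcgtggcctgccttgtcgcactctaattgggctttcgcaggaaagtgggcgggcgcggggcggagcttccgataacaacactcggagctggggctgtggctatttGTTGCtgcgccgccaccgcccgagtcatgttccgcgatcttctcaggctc
DCP1B: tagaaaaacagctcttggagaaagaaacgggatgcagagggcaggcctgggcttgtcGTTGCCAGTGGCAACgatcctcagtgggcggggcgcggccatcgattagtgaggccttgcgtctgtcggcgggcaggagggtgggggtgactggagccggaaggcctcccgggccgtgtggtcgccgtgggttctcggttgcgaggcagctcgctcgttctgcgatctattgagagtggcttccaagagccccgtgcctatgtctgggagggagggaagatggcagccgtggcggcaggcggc

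PNRC1 (ENSG00000146278, chromosome 6, 89080751 to 89085160, plus strand, GENCODE 29 on GRCh38) rose with Nutlin-3a chiefly in siControl and much less in siRFX7. Effects of the siRNA other than the lower RFX7 level were not tested. Its group levels, solved from the base mean and fold change of the authors' deposited tables and scaled to 1000000 counts in all (CPM), were 10.4 CPM in siControl with DMSO and 31.1 in siControl with Nutlin-3a. In siRFX7 the levels were 7.30 with DMSO and 8.95 with Nutlin-3a. A single group, siControl with Nutlin-3a, therefore stood high, and the other three lay at or below 10.4 CPM. The CPM scaling takes the place of the authors' size factors, so ratios of these levels differ somewhat from the deposited fold changes. The authors' deposited tables give a log2 fold change with Nutlin-3a of 1.54 ± 0.07 (SE) in siControl, which is 2.92-fold. In siRFX7 they give 0.25 ± 0.10, which is 1.19-fold. For siRFX7 over siControl the authors' deposited tables give -0.45 ± 0.09 under DMSO, 73.4% of the control level, and -1.74 ± 0.08 under Nutlin-3a, 30.0% of it. The response in siRFX7 minus that in siControl was -1.30 ± 0.13, with a 95% interval from -1.54 to -1.05. Of the genes with base means of 100 or more, PNRC1 ranked 106 of 13525 from the top for Nutlin-3a in siControl and 13169 of 13177 for siRFX7 under Nutlin-3a, by log2 fold change per the authors' deposited tables. These ranks restate the values that singled PNRC1 out. In such bulk RNA, fewer cells expressing a gene and less RNA per cell cannot be told apart.

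PNRC2 (ENSG00000189266, chromosome 1, 23956839 to 23963462, plus strand), the adaptor that tethers decapping to nonsense-mediated decay, moved in another pattern and by smaller amounts. It stood at 74.8 CPM in siControl with DMSO and 74.5 in siControl with Nutlin-3a. In siRFX7 it stood at 91.3 with DMSO and 74.1 with Nutlin-3a, so that the siRFX7 DMSO group alone was high. In the authors' deposited table PNRC2 rose with siRFX7 under DMSO, with a log2 fold change of 0.35 ± 0.04 (127% of control, DESeq2 adjusted p = 3.29e-14). Within siRFX7, Nutlin-3a lowered it by a log2 fold change of -0.35 ± 0.05 (78.6% of the DMSO level, DESeq2 adjusted p = 2.31e-10, the authors' deposited table). These values share the siRFX7 DMSO libraries. Neither comparison with the siControl Nutlin-3a group was called: per the authors' deposited tables Nutlin-3a in siControl gave -0.05 ± 0.04 (DESeq2 adjusted p = 0.456) and siRFX7 under Nutlin-3a gave 0.05 ± 0.05 (DESeq2 adjusted p = 0.511, 95% interval -0.05 to 0.15). The Nutlin-3a response of PNRC2 was lower in siRFX7 than in siControl by a log2 difference of -0.30 ± 0.07, with a 95% interval from -0.43 to -0.17 and a Benjamini-Hochberg adjusted p of 0.00167 over 21339 genes. The group that stood apart was siRFX7 with DMSO for PNRC2 and siControl with Nutlin-3a for PNRC1. The processed pseudogene PNRC2P1, whose reads may be hard to separate from those of PNRC2, had a base mean of 55.0 and no call per the authors' deposited tables, and its difference of responses was -0.28 ± 0.32.

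**Figure D1:**
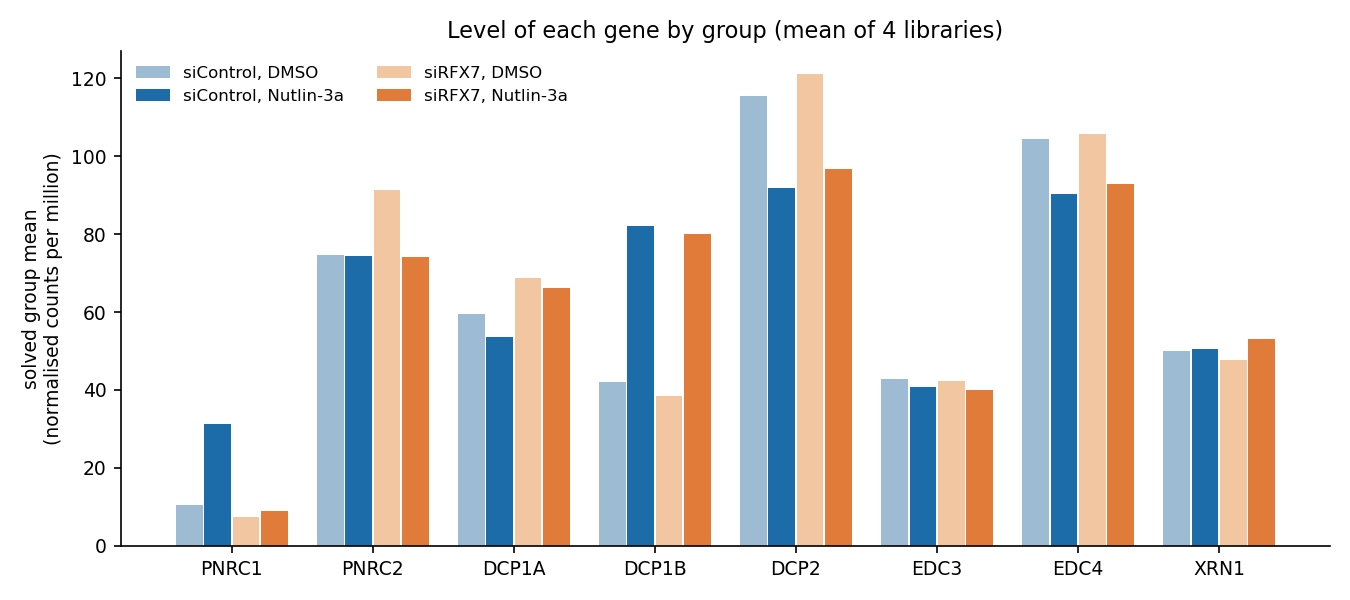
Levels of the 8 genes in the 4 groups, in CPM, solved from the authors' base means and fold changes; bars start at 0 and carry no error, since the tables hold no single library. PNRC1 is high in siControl with Nutlin-3a alone (31.1), PNRC2 in siRFX7 with DMSO alone (91.3), and DCP1B in both Nutlin-3a groups (82.0 and 79.98).

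The DCP1 paralogs parted company. DCP1B (ENSG00000151065, chromosome 12, 1946054 to 2004535, minus strand) rose with Nutlin-3a in both siRNA conditions, and DCP1A (ENSG00000272886, chromosome 3, 53283428 to 53347610, minus strand) did not. DCP1B stood at 42.0 CPM in siControl with DMSO and 82.0 with Nutlin-3a, and at 38.4 and 79.98 in siRFX7. Per the authors' deposited tables the log2 fold change of DCP1B with Nutlin-3a was 0.93 ± 0.05 in siControl (1.90-fold, DESeq2 adjusted p = 9.76e-72) and 1.01 ± 0.05 in siRFX7 (2.02-fold, DESeq2 adjusted p = 8.81e-77). Both Nutlin-3a groups lay above both DMSO groups, whichever siRNA was used. Of genes at a base mean of 100 or more, DCP1B ranked 282 of 13525 and 167 of 12867 from the top per the authors' deposited tables. siRFX7 gave it -0.07 ± 0.06 under DMSO (DESeq2 adjusted p = 0.383, 95% interval -0.18 to 0.04) and 0.02 ± 0.05 under Nutlin-3a (DESeq2 adjusted p = 0.822, 95% interval -0.07 to 0.11) per the authors' deposited tables. The difference of its Nutlin-3a responses was 0.09 ± 0.07, with a 95% interval from -0.06 to 0.23 and no call. The window of DCP1B holds the palindromic X-box match printed above, and its level with siRFX7 was not called as changed under either treatment.

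DCP1A stood at 59.5 CPM in siControl with DMSO, 53.6 in siControl with Nutlin-3a, 68.7 in siRFX7 with DMSO and 66.1 in siRFX7 with Nutlin-3a. Both siRFX7 groups lay above both siControl groups. It rose with siRFX7 by 0.27 ± 0.06 under DMSO (120% of control, DESeq2 adjusted p = 9.83e-06) and 0.36 ± 0.05 under Nutlin-3a (128%, DESeq2 adjusted p = 2.37e-11) on the log2 scale per the authors' deposited tables. With Nutlin-3a it fell by 0.19 ± 0.05 in siControl (DESeq2 adjusted p = 0.00135), and in siRFX7 its value was -0.10 ± 0.05 (DESeq2 adjusted p = 0.126), per the authors' deposited tables. The difference of these responses was 0.09 ± 0.08, with a 95% interval from -0.06 to 0.24, and was not called. Per kilobase of exon, the scale on which genes can be set beside each other, DCP1A and DCP1B had nearly equal levels in siControl with DMSO, 9.72 and 9.11 CPM per kilobase. With Nutlin-3a the DCP1B level per kilobase was 17.8 against 8.75 for DCP1A in siControl, and 17.4 against 10.8 in siRFX7. No test of paralog against paralog was possible from these tables.

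DCP2 (ENSG00000172795, chromosome 5, 112976702 to 113020970, plus strand), the enzyme itself, fell with Nutlin-3a in both siRNA conditions. Its levels were 115.6 CPM in siControl with DMSO and 91.8 with Nutlin-3a, and 121 and 96.6 in siRFX7. The authors' deposited tables give log2 fold changes of -0.37 ± 0.05 in siControl (77.2% of the DMSO level, DESeq2 adjusted p = 3.17e-12) and -0.37 ± 0.06 in siRFX7 (77.3%, DESeq2 adjusted p = 9.91e-10). The difference of the responses had a 95% interval from -0.15 to 0.15. With siRFX7 the authors' deposited tables give 0.13 ± 0.06 under DMSO (DESeq2 adjusted p = 0.0715) and 0.13 ± 0.05 under Nutlin-3a (DESeq2 adjusted p = 0.0290). The latter was called and the former was not, and the estimates were alike.

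EDC4 (ENSG00000038358, chromosome 16, 67873023 to 67884503, plus strand), the large scaffold of the decapping complex, also fell with Nutlin-3a. The log2 fold changes per the authors' deposited tables were -0.25 ± 0.04 in siControl (84.1% of the DMSO level, DESeq2 adjusted p = 1.36e-08) and -0.23 ± 0.04 in siRFX7 (85.0%, DESeq2 adjusted p = 3.78e-07). Its levels fell from 104.5 to 90.3 CPM in siControl and from 105.7 to 92.8 in siRFX7. With siRFX7 it had 0.08 ± 0.04 under DMSO (DESeq2 adjusted p = 0.108) and 0.10 ± 0.04 under Nutlin-3a (DESeq2 adjusted p = 0.0829) per the authors' deposited tables, neither of which was called.

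EDC3 (ENSG00000179151, chromosome 15, 74630558 to 74696292, minus strand), a smaller enhancer that binds the helicase DDX6, was called in none of the 4 tables as deposited. Adjusted again over genes at base means of 100 or more, it was called lower with Nutlin-3a in siRFX7 (Benjamini-Hochberg adjusted p = 0.0427). Its levels ran from 40.1 to 42.7 CPM over the 4 groups. Its log2 fold changes per the authors' deposited tables lay between -0.12 ± 0.06 (Nutlin-3a in siRFX7, DESeq2 adjusted p = 0.0611) and 0.05 ± 0.05 (siRFX7 under DMSO, DESeq2 adjusted p = 0.520). XRN1 (ENSG00000114127, chromosome 3, 142306607 to 142448062, minus strand), which takes over after decapping, ranged from 47.65 to 53.05 CPM. It rose in a single comparison, siRFX7 under Nutlin-3a, by 0.12 ± 0.05 on the log2 scale (DESeq2 adjusted p = 0.0481, 95% interval 0.02 to 0.22) per the authors' deposited table. The difference of its Nutlin-3a responses, 0.13 ± 0.08 with a 95% interval from -0.02 to 0.28, was not called (Benjamini-Hochberg adjusted p = 0.927).

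**Figure D2:**
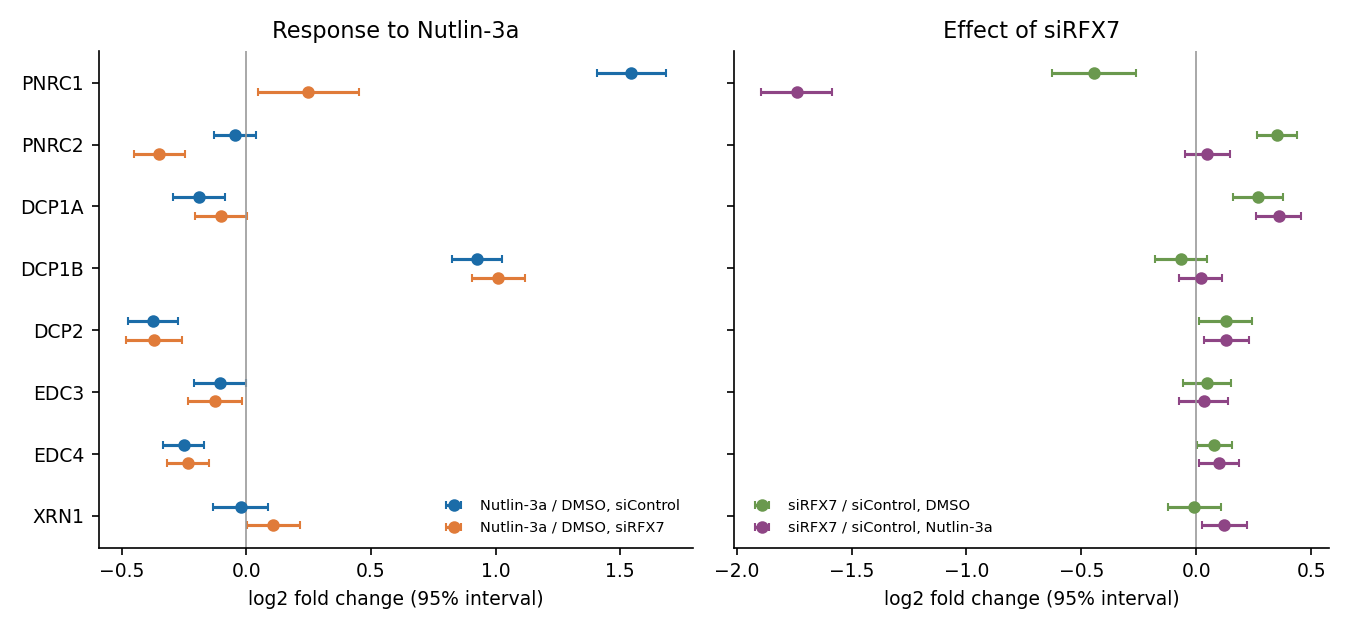
Log2 fold change with its 95% interval for the 8 genes in the 4 comparisons, the authors' deposited values. Nutlin-3a raises DCP1B (0.93 and 1.01) and lowers DCP2 and EDC4 in both siRNA conditions, and PNRC1 spans the widest range, from -1.74 to 1.54.

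Counted over the 8 genes at an adjusted p under 0.05, Nutlin-3a in siControl raised 2 (PNRC1 and DCP1B) and lowered 3 (DCP1A, DCP2 and EDC4). The whole table had 18.3% of its genes called higher and 19.6% lower. At base means of 100 or more, which all 8 genes have, 56.3% were called in either direction, so 5 of 8 is near the background. Nutlin-3a in siRFX7 raised 2 (PNRC1 and DCP1B) and lowered 3 (PNRC2, DCP2 and EDC4), against 18.7% of all genes higher, 20.3% lower and 56.3% called at base means of 100 or more. siRFX7 under DMSO raised 2 (PNRC2 and DCP1A) and lowered 1 (PNRC1), against 19.9% of all genes higher, 17.5% lower and 49.7% called at that base mean. siRFX7 under Nutlin-3a raised 3 (DCP1A, DCP2 and XRN1) and lowered 1 (PNRC1), against 17.2% higher, 15.4% lower and 45.3% called at that base mean. Each of these counts is near its background. Only the difference of the Nutlin-3a responses has few calls, 0.764% of all genes lower in siRFX7, 0.173% higher and 1.45% in either direction at base means of 100 or more. In it 2 of the 8 genes, PNRC1 and PNRC2, were called lower and 0 higher, and PNRC1 had been chosen for this pattern. The median over the 8 genes was -0.08 for Nutlin-3a in siControl, -0.11 in siRFX7, 0.06 for siRFX7 under DMSO and 0.07 under Nutlin-3a. At base means of 100 or more the medians over all genes of the authors' deposited tables were -0.03, -0.03, 0.01 and 0.01 in that order, on the same side of 0 as those of the 8 genes.

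**Figure D3:**
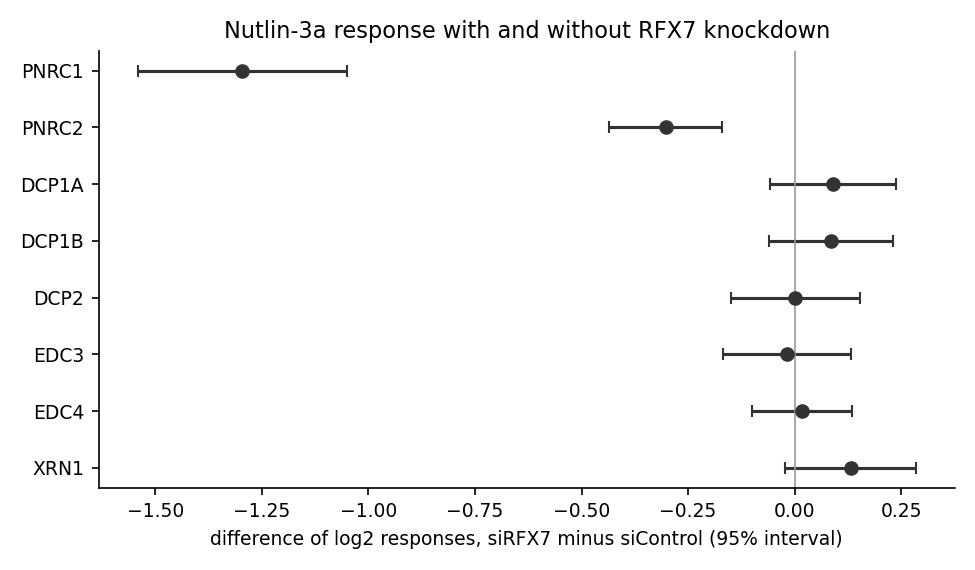
Difference of the Nutlin-3a responses, siRFX7 minus siControl, on the log2 scale with 95% intervals for the 8 genes. The intervals of PNRC1 (-1.54 to -1.05) and PNRC2 (-0.43 to -0.17) lie below 0, and those of the other 6 include 0. PNRC1 had been chosen for this pattern, so its interval is a description only.

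Set beside each other per kilobase of exon in siControl with DMSO, PNRC2 was the most abundant of the 8 transcripts, at 26.9 CPM per kilobase. EDC4 followed at 16.9 and DCP2 at 11.6, then DCP1A at 9.72, DCP1B at 9.11 and EDC3 at 8.36. XRN1 at 4.17 and PNRC1 at 3.47 were the lowest. This order is of solved group means and has no error, so whether neighbours such as DCP1A and DCP1B, or XRN1 and PNRC1, differ could not be tested. With Nutlin-3a in siControl PNRC1 stood at 10.4 and PNRC2 at 26.8 on this scale, against 2.99 and 26.7 with Nutlin-3a in siRFX7. PNRC2 transcripts thus stood above PNRC1 transcripts in every group.

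Genes whose 4 log2 fold changes lay nearest to those of PNRC1 were sought among 12179 genes whose base mean was 100 or more in every table, by Euclidean distance. The nearest were CCNG2 (distance 0.38), PDCD4 (0.75), ABAT (0.76), MXD4 (0.80) and KLHL24 (0.81). CCNG2 encodes cyclin G2, an unconventional cyclin linked to cell cycle arrest. In the authors' deposited tables it had 1.27 ± 0.06 with Nutlin-3a in siControl and 0.33 ± 0.11 in siRFX7, and -0.60 ± 0.09 and -1.54 ± 0.07 with siRFX7 under DMSO and Nutlin-3a. PDCD4, an inhibitor of the translation helicase EIF4A, had 0.99 ± 0.05, 0.39 ± 0.08, -0.80 ± 0.07 and -1.40 ± 0.06 in the same order per the authors' deposited tables. MXD4, a MAX-binding repressor that opposes MYC, had the steeper induction, 2.13 ± 0.08 with Nutlin-3a in siControl and 0.69 ± 0.09 in siRFX7, per the authors' deposited tables. These genes were picked for likeness, so their shared direction is no finding.

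The genes nearest to PNRC2 were ZBED2 (distance 0.06), TGFBI (0.07), TERF1 (0.08), EGLN1 (0.09) and LRRN1 (0.11). Small distances are easily reached by a gene with small changes, and with Wald statistics in place of fold changes only TGFBI and EGLN1 remained among the nearest 5. TGFBI, an extracellular matrix protein induced by TGF-beta, had -0.00394 ± 0.04 with Nutlin-3a in siControl and -0.31 ± 0.04 in siRFX7 per the authors' deposited tables. With siRFX7 it had 0.38 ± 0.04 under DMSO and 0.08 ± 0.05 under Nutlin-3a per the authors' deposited tables. EGLN1 is the oxygen-sensing prolyl hydroxylase PHD2, and had -0.12 ± 0.05, -0.36 ± 0.04, 0.30 ± 0.04 and 0.06 ± 0.05 in the same order per the authors' deposited tables.

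**Figure D4:**
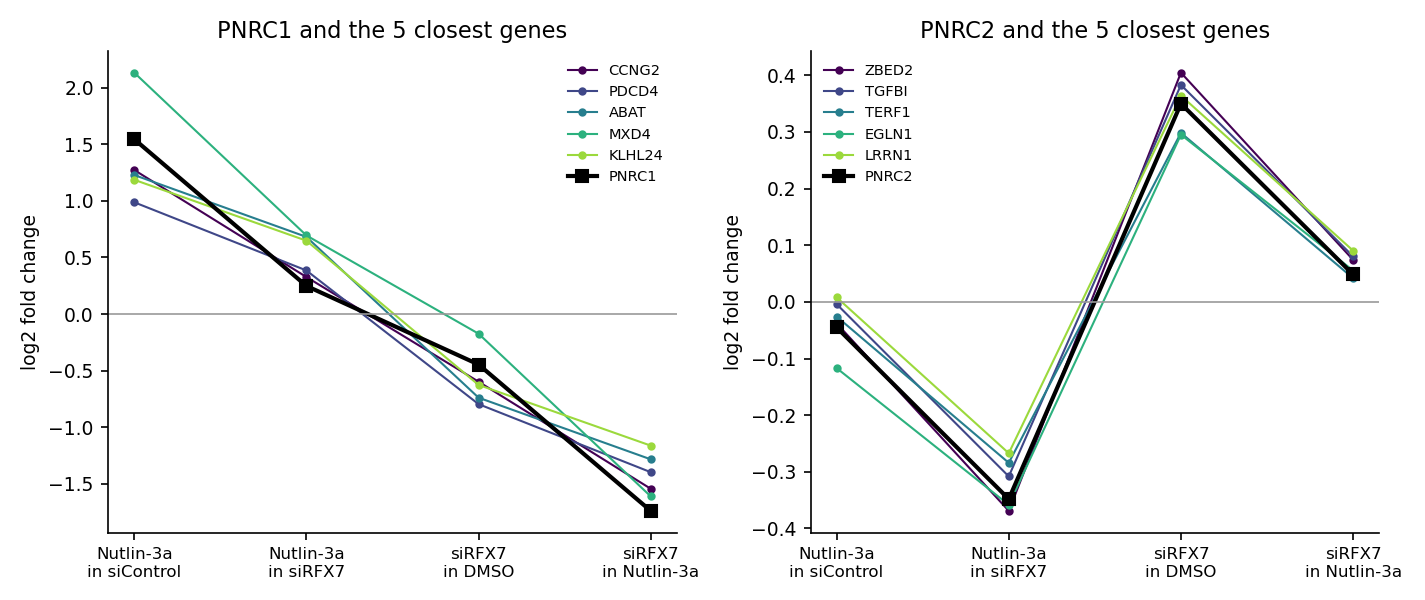
The 4 log2 fold changes of PNRC1 and PNRC2 and of the 5 genes nearest to each, the authors' deposited values. CCNG2 follows PNRC1 most closely, at a distance of 0.38, and all 5 genes nearest to PNRC2 lie within 0.11 of it.

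Most genes of 3 wider decay lists (decapping partners, nonsense-mediated decay and exosome) were called lower with Nutlin-3a in both siRNA conditions. Of 21 further activators and cap-removal partners of decapping, 15 were called lower and 1 higher with Nutlin-3a in siControl, with a median log2 fold change of -0.23 per the authors' deposited table. In siRFX7, 13 of 20 were lower and 1 higher, with a median of -0.22. At base means of 100 or more, 31.6% of all genes were called lower with Nutlin-3a in siControl and 31.5% in siRFX7, and the median was -0.03 in each. LSM3, a subunit of the LSM ring that binds shortened 3′ ends and stimulates decapping, fell by 0.46 ± 0.05 in siControl, and its ring partner LSM7 by 0.33, per the authors' deposited table. NUDT16, another decapping enzyme, rose by 0.19 ± 0.05 in siControl and by 0.38 ± 0.06 in siRFX7 per the authors' deposited tables. With siRFX7 the list was mixed: 3 of 20 were higher and 5 lower under DMSO, and 6 were higher and 3 lower under Nutlin-3a. EIF4E, the cap-binding translation factor that shields the cap, rose by 0.31 ± 0.06 and LSM4 fell by 0.34 ± 0.05 with siRFX7 under DMSO per the authors' deposited table. With siRFX7, 27.1% of all genes at base means of 100 or more were higher and 22.6% lower under DMSO, and 24.6% were higher and 20.6% lower under Nutlin-3a. None of the list was called in the difference of responses. LSM3 came closest, with a difference of 0.24 and a Benjamini-Hochberg adjusted p of 0.0511.

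Nonsense-mediated decay, the pathway that PNRC2 joins to decapping, showed the same direction with Nutlin-3a. Of 17 of its factors, release factors and exon junction proteins, 15 were lower and 1 higher in siControl (median -0.27), and 13 were lower and 1 higher in siRFX7 (median -0.25). The shares of all genes lower at base means of 100 or more were 31.6% and 31.5%. MAGOH and EIF4A3, both core proteins of the exon junction complex, had -0.42 ± 0.06 and -0.37 in siControl per the authors' deposited table, and the single gene that rose was SMG6, an endonuclease, at 0.21 ± 0.05. With siRFX7, 8 were lower and 2 higher under DMSO, and 5 were lower and 2 higher under Nutlin-3a, where all genes at base means of 100 or more had 22.6% and 20.6% lower. STAU1, an RNA-binding protein that recruits UPF1, was the lowest of them, at -1.16 ± 0.04 under DMSO and -1.13 ± 0.04 under Nutlin-3a per the authors' deposited tables. The 3′ UTR of STAU1 holds 2 matches to the heptamer GTATCTA, a word picked in an earlier examination of these same fold changes and so no independent evidence. It stands in 7.65% of 19146 genes. The part of such matches in the level of STAU1 was not tested. None of the 8 decapping genes carries that heptamer, nor the hexamer GACGTA picked in the same way (4.62% of genes).

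Shortening of the poly(A) tail comes before decapping. Of 20 deadenylation genes, 10 were lower and 2 higher with Nutlin-3a in siControl (median -0.11), and 8 were lower and 3 higher in siRFX7 (median -0.08). Nutlin-3a lowered 31.6% and raised 24.7% of all genes at base means of 100 or more in siControl, and 31.5% and 24.8% in siRFX7. Among the deadenylation genes siRFX7 gave more higher than lower calls, 10 against 3 under DMSO and 10 against 2 under Nutlin-3a, with medians of 0.10 and 0.12. At base means of 100 or more, 27.1% of all genes were higher with siRFX7 under DMSO and 24.6% under Nutlin-3a. CNOT7, a catalytic subunit of the CCR4-NOT deadenylase, rose by 0.62 ± 0.04 with siRFX7 under DMSO and 0.57 ± 0.04 under Nutlin-3a per the authors' deposited tables. TNRC6C, which joins Argonaute to that complex, rose by 0.66 ± 0.08 and 0.68 ± 0.08, and PAN2, the catalytic subunit of the PAN2-PAN3 deadenylase, fell by 0.34 ± 0.06 and 0.36 ± 0.07, per the authors' deposited tables.

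The opposite, 3′ to 5′ route of decay runs through the exosome and its SKI helicase. Of 20 of its genes, 13 were lower and 1 higher with Nutlin-3a in each siRNA condition, and the medians were -0.21 with siControl and -0.23 with siRFX7. The ring subunits EXOSC9 and EXOSC8 were the lowest, at -0.61 ± 0.04 and -0.55 ± 0.06 in siControl per the authors' deposited table. With siRFX7, 4 were higher and 5 lower under DMSO and 5 were higher and 4 lower under Nutlin-3a. These counts are near the shares of all genes at that base mean. Those were 27.1% higher and 22.6% lower under DMSO, and 24.6% and 20.6% under Nutlin-3a. C1D, an exosome cofactor, stood apart at 1.59 ± 0.10 under DMSO and 1.24 ± 0.11 under Nutlin-3a per the authors' deposited tables.

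The list of sequence-specific decay factors was split. It holds RNA-binding proteins that act on particular mRNAs, among them ELAVL1 and the CPEB proteins, and not only ones that speed decay. Of 21, 6 were higher and 9 lower with Nutlin-3a in siControl (median -0.07), and 4 were higher and 8 lower in siRFX7 (median -0.09). The shares of all genes at base means of 100 or more were 24.7% higher and 31.6% lower in siControl, and 24.8% and 31.5% in siRFX7. The split of the list is near that background. CPEB4 and CPEB2, which bind U-rich elements near the poly(A) site, rose by 0.77 ± 0.06 and 0.54 ± 0.08 in siControl per the authors' deposited table. ZFP36L2 and KHSRP, which bind AU-rich elements and speed decay, fell by 0.47 ± 0.06 and 0.47 ± 0.04 per the authors' deposited table. With siRFX7, 9 were higher and 1 lower under DMSO, and 7 were higher and 1 lower under Nutlin-3a. Over all genes at base means of 100 or more, 27.1% were higher and 22.6% lower under DMSO, and 24.6% and 20.6% under Nutlin-3a.

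**Figure D5:**
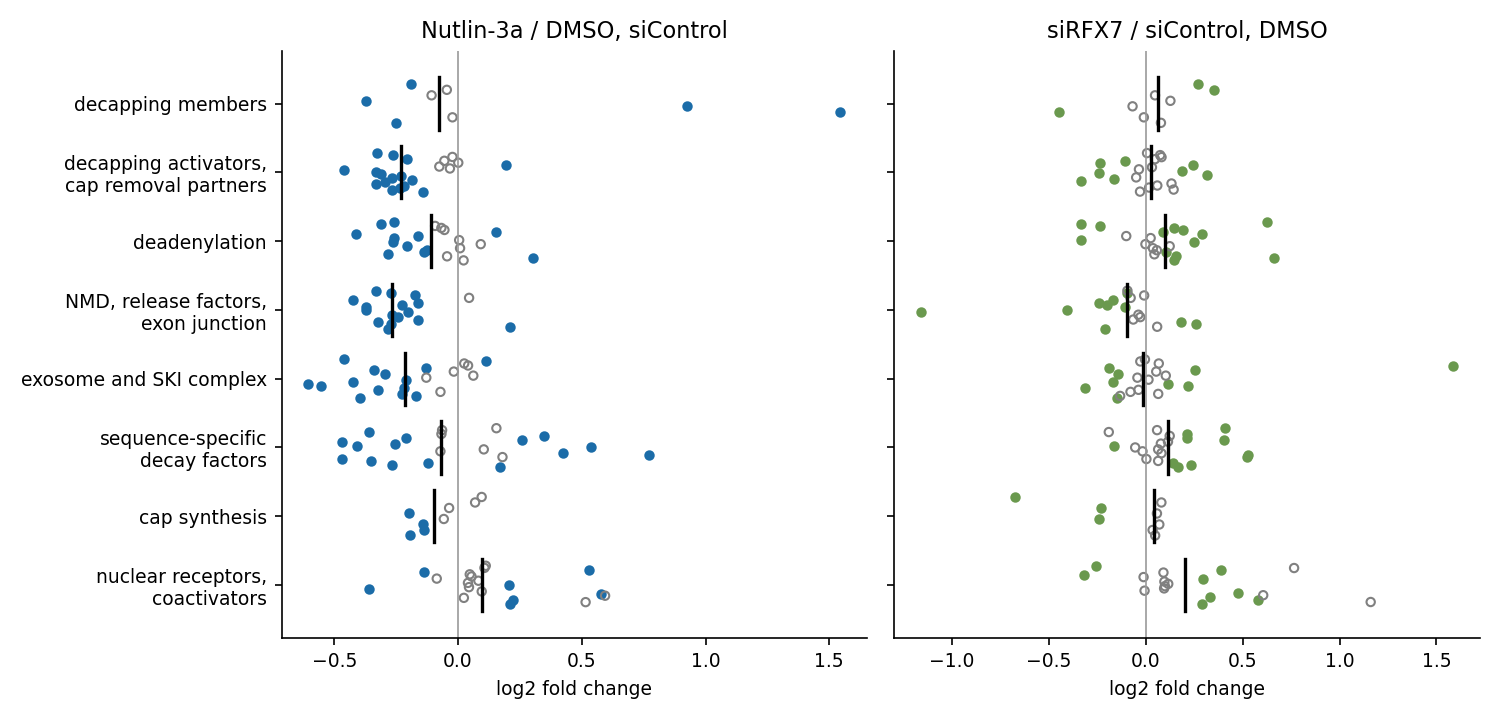
Log2 fold changes of the 8 decapping genes and of the genes of each list, for Nutlin-3a over DMSO in siControl (left) and siRFX7 over siControl under DMSO (right), from the authors' deposited tables. Filled points are called at an adjusted p under 0.05, open points are not, and vertical bars are medians, which on the left lie between -0.27 and -0.21 for the decapping-partner, nonsense-mediated decay and exosome lists.

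RNGTT, the capping enzyme, lies 117030 bases from PNRC1 on the opposite strand, and SRSF12 lies 10799 bases away. RNGTT had -0.14 ± 0.06 with Nutlin-3a in siControl and 0.10 ± 0.06 with siRFX7 under Nutlin-3a per the authors' deposited tables. SRSF12, with a base mean of 39.2, had -0.01 ± 0.24 and 0.16 ± 0.25 in the same comparisons, and 0.33 ± 0.27 with Nutlin-3a in siRFX7, and was called in none of the authors' deposited tables. DCP1A, DCP1B and EDC3 overlap CACNA1D, CACNA1C and CLK3 on the opposite strand. The strand setting of the counting is not given in the sources used here, so reads in the overlaps may have been assigned to either gene or to none. EDC4 overlaps a long intergenic noncoding RNA on its own strand, where reads may be ambiguous under any strand setting. For Nutlin-3a in siControl that RNA had a base mean of 64.2, against 3444 for EDC4, and a log2 fold change of -0.01 ± 0.21. With Nutlin-3a in siRFX7 it had -0.63 ± 0.20, per the authors' deposited tables. CACNA1C had 0.33 and 0.40 with Nutlin-3a in siControl and siRFX7, below the 0.93 and 1.01 of DCP1B, and a base mean of 346 per the authors' deposited tables.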

How the data were processed

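Poly(A) RNA of 16 U2OS libraries was sequenced after a stranded kit, per the labels' protocols. Groups came from the sample titles. Per the submitters' processing notes, the tools included bcl2fastq 2.19.1.403, Trimmomatic 0.39, cutadapt 2.10, featureCounts 1.6.5 and DESeq2 1.20.0, on build hg38. The aligner, annotation and strand setting are not given in the sources used here. Each of the 4 tables compares 2 groups of 4 libraries. The base mean is a signal, the mean normalised count over 8 libraries that the authors computed. The log2 fold changes and SEs are as the authors deposited them. The Wald statistic is a deposited score, used for checks and in an alternative. The deposited p-value is two-sided, with Benjamini-Hochberg adjustment over each table's genes. A gene counted as called below an adjusted p of 0.05.

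The signs of RFX7, CDKN1A and MDM2 set the direction of the tables. The difference of responses was the siRFX7 minus the siControl value of the Nutlin-3a log2 fold change, from tables that share no library, with the root of the summed squared SEs and a two-sided normal p adjusted over 21339 genes. This step was run on simulated data with normal errors drawn from the deposited SEs. That checks the arithmetic and cannot show whether the SEs hold in the real data. Comparisons that share a control group are given side by side only. Group levels were solved from base mean and fold change, scaled to a common total (CPM), and divided by GENCODE 29 exon length where genes are compared. This scaling differs from the authors' size factors, so small changes can differ even in sign. EDC3 went from 42.7 to 42.3 CPM with siRFX7 under DMSO, where its deposited log2 fold change is 0.05. The levels have no error and no test. Python 3.11.15, pandas 2.3.3 and scipy 1.17.1 were used.

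The members and lists were chosen with earlier results of these data known. Named were the 8 genes, the label checks, the 5 genes nearest to PNRC1 and to PNRC2, the neighbours of PNRC1 and, per list, genes from the 2 highest and 2 lowest called changes. That rule did not say in which comparison; it was applied to siRFX7 under DMSO and to Nutlin-3a in siControl. The CACNA1C values and the LSM3 difference lie outside the rule and were given after their values were seen. Clone-identifier names were left out. Alternatives were a threshold of 0.01, a least size of 0.25, adjustment over genes at base means of 100 or more, the siRFX7 tables for the difference, and Wald statistics for the nearest genes.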

Additional observations from a re-analysis of the deposited data

Results flagged for a closer look

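Of the 8 genes, 2 responded to Nutlin-3a differently with siRFX7 than with siControl. For PNRC1 the difference was -1.30 on the log2 scale, and this gene had been chosen for that pattern. For PNRC2 it was -0.30 (Benjamini-Hochberg adjusted p = 0.00167 over all genes tested), and its high group was siRFX7 with DMSO.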

How the results depend on the processing

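The difference of responses called 2 of the 8 genes, PNRC1 and PNRC2, under each of 4 alternatives. From the siRFX7 tables it was -1.29 for PNRC1 and -0.30 for PNRC2 (Benjamini-Hochberg adjusted p = 0.00148). That form is the same contrast of the same libraries, so its agreement was fixed in advance and is no support for either gene. PNRC1 had been chosen for this pattern, so its repeated call is no support. With a least size of 0.25, the count for Nutlin-3a in siRFX7 went from 5 to 3, without PNRC1 and EDC4. For siRFX7 under Nutlin-3a the count went from 4 to 2, without DCP2 and XRN1, both at a threshold of 0.01 and with the least size. At 0.01 PNRC1 was not called for Nutlin-3a in siRFX7, and with adjustment over genes at base means of 100 or more EDC3 was gained there, for a count of 6. Of 35 list counts, 3 moved by over 1.5 times at 0.01: decapping partners under siRFX7 with Nutlin-3a from 9 to 5, deadenylation under siRFX7 with DMSO from 13 to 8, and exosome genes under siRFX7 with Nutlin-3a from 9 to 5. The genes nearest to PNRC1 by Wald statistics shared 4 of 5. No paired analysis was possible because the deposited tables hold no single library, and leaving out a library was not run for the same reason. Small changes such as those of XRN1 and DCP2 with siRFX7 lie near the threshold, and counts of calls reflect precision as well as size.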

Other observations

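Of 8 cap synthesis genes, 4 were lower and 0 higher with Nutlin-3a in siControl, where 31.6% of all genes at base means of 100 or more were lower and 24.7% higher. With siRFX7, 3 were lower and 0 higher under DMSO, and 2 were lower and 0 higher under Nutlin-3a. The shares of all genes at that base mean were 22.6% lower and 27.1% higher under DMSO, and 20.6% and 24.6% under Nutlin-3a. CMTR2, which methylates the second transcribed nucleotide, had 0.10 ± 0.05 in siControl (DESeq2 adjusted p = 0.112) and rose by 0.33 ± 0.07 in siRFX7 with Nutlin-3a, per the authors' deposited tables. With siRFX7 it fell by 0.67 ± 0.06 under DMSO and by 0.43 ± 0.06 under Nutlin-3a per the authors' deposited tables. Its 3′ UTR holds 1 match to the heptamer named above, and the part of that match was not tested. The difference of its responses, 0.24, was not called (Benjamini-Hochberg adjusted p = 0.212).

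Of 19 nuclear receptors and coactivators per the authors' deposited table, 5 were higher and 2 lower with Nutlin-3a in siControl, and in siRFX7 7 of 18 were higher and 2 lower. At base means of 100 or more, Nutlin-3a raised 24.7% of all genes in siControl and 24.8% in siRFX7. Among genes of any base mean the shares were 18.3% and 18.7%. ESR1, ESR2, ESRRG and NR5A2 have base means under 100, so neither share matches the list in expression, and no conclusion is drawn from the receptor counts. PPARA, a fatty acid sensing receptor, rose by 0.53 ± 0.05 in siControl and 0.53 ± 0.07 in siRFX7 per the authors' deposited tables. VDR, the vitamin D receptor, rose with siRFX7 by 0.58 ± 0.06 under DMSO and 0.62 ± 0.06 under Nutlin-3a per the authors' deposited tables. THRA, a thyroid hormone receptor, fell with Nutlin-3a by 0.36 ± 0.07 in siControl and 0.36 ± 0.06 in siRFX7 per the authors' deposited tables. None of either list was called in the difference of responses.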
